A study of Rattus norvegicus with 12 samples.

Results

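Expression of 9 genes that receive or shape reproductive and steroid hormone signals was examined in the pubocaudalis, a pelvic floor muscle (PFM) of the rat, after simulated birth injury (SBI). The genes were the estrogen receptors Esr1 and Esr2, the estrogen-induced gene Greb1, the progesterone receptor Pgr, the glucocorticoid receptor Nr3c1, the cortisone reductase Hsd11b1, the mineralocorticoid receptor Nr3c2, the oxytocin receptor Oxtr and the relaxin receptor Rxfp1. They were chosen by symbol, with earlier results of these data known. Each matched 1 of the 30206 rows of the deposited count table (Esr1 ENSRNOG00000019358, Esr2 ENSRNOG00000005343, Greb1 ENSRNOG00000024651, Pgr ENSRNOG00000006831, Nr3c1 ENSRNOG00000014096, Hsd11b1 ENSRNOG00000005861, Nr3c2 ENSRNOG00000034007, Oxtr ENSRNOG00000005806 and Rxfp1 ENSRNOG00000024120). Of the 9 genes, 7 were among the 14599 genes with enough counts to be tested, and Esr2 and Oxtr were not. All rats were female Sprague-Dawley rats, 3 months old, that were injured with a vaginal balloon late in pregnancy and then delivered. Pups of non-lactating rats were taken away after birth, whereas lactating (Lac) rats nursed, and muscle was collected 1 or 3 weeks after the injury. The non-lactating groups are called 1wk SBI and 3wk SBI, and the lactating ones carry the suffix + Lac. Each library pooled the RNA of 2 rats, so that 6 rats gave 3 libraries per group, and n counts pools. Uninjured or non-pregnant muscle was not among these libraries, so every comparison is between injured, postpartum muscles.

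Steroid receptors are transcription factors that wait in the cell, bind a hormone that crosses the membrane and then act on target genes. Estrogen and progesterone receptors shape the growth and remodeling of reproductive tissues, and in the pelvic floor they are known mostly from connective tissue and smooth muscle. The glucocorticoid receptor is found in nearly all cells and drives both metabolic and atrophy programs in skeletal muscle. Hsd11b1 regenerates active glucocorticoid inside the cell, and the mineralocorticoid receptor binds both aldosterone and glucocorticoids. Oxytocin and relaxin act at the cell surface, through G protein-coupled receptors known for milk ejection and uterine contraction in the case of Oxtr and for softening of connective tissue around birth in the case of Rxfp1.

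The stretches before the start sites of Esr2, Oxtr and Pgr are shown because these 3 genes lay nearest the limit of detection. RefSeq promoter sequences (build GRCr8) were matched for 5 of the 9 genes, namely Esr1, Esr2, Pgr, Nr3c1 and Oxtr. Each line gives the 250 bases before the start, 5′ to 3′ on the strand of the gene, with capitals marking the estrogen receptor core GGTCA or its reverse complement TGACC. Esr2 lies on the minus strand at chr6:100644710-100644959, Oxtr on the minus strand at chr4:147170500-147170749 and Pgr on the plus strand at chr8:14354148-14354397.
Esr2: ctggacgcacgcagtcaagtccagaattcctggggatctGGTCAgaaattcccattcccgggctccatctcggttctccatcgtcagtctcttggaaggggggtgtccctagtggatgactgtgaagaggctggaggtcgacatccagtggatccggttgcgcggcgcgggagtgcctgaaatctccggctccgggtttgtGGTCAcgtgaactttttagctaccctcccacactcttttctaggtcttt
Oxtr: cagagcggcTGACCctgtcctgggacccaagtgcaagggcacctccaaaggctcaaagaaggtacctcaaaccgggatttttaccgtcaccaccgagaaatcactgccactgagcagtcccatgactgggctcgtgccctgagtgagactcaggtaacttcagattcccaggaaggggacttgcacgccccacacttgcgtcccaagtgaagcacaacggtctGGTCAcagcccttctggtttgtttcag
Pgr: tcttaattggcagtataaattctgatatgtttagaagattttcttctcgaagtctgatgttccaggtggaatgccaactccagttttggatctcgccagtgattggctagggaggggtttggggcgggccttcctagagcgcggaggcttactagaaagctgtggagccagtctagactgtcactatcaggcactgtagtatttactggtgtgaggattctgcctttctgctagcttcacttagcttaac

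The core was found 2 times before Esr2, 2 times before Oxtr and 0 times before Pgr, on either strand. It was present in 35.4% of all 33469 promoter stretches of that length, so a match was common. In Oxtr the matches began 241 and 27 bases before the start. The full palindrome GGTCANNNTGACC was found before none of the 5 matched genes and in 8 of all stretches. The core AGAACA of the glucocorticoid, progesterone and mineralocorticoid receptors, or its reverse complement TGTTCT, was also found before none of the 5, against 17.5% of all stretches. A match describes letters only, and the absence of one says nothing about binding.

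Total counts per library ranged from 30862144 to 51662983 at 1 week and from 10082734 to 75634391 at 3 weeks. The deepest library, 3wk SBI replicate 3, also stood apart in several genes described here, and results that rest on it are given with and without it. The 1-week values were whole counts, whereas 26.6% to 44% of the 3-week values carried decimals, so that time and the way of counting cannot be told apart. Levels are normalized CPM, read counts scaled to library size with edgeR's TMM factors. Gene lengths were not used, so levels are compared between groups for 1 gene and not between genes. The labels call the tissue skeletal muscle, and the 9 skeletal muscle markers found in the table summed to between 91452 and 220240 CPM in every library, with none at 0. A gene was called in edgeR's quasi-likelihood test when its Benjamini-Hochberg p lay under 0.05 and its log2 fold change exceeded 1 in size. p-values set the difference between groups against the spread between these pools, not against that between single rats.

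**Figure D1:**
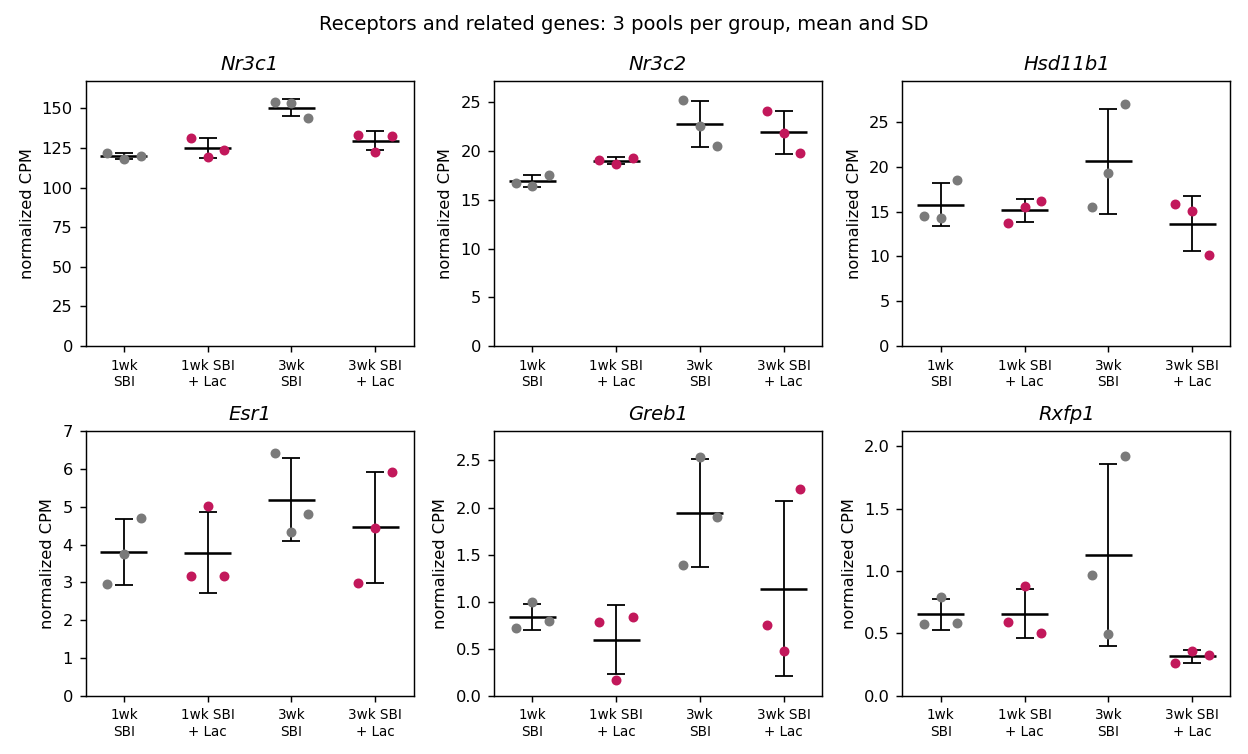
Normalized CPM (vertical axes, starting at 0) of 6 receptors and related genes in each of 12 pools, by group, with non-lactating pools in grey and lactating pools in red. Bars give the mean and whiskers the SD (n = 3); Rxfp1 of all 3 lactating pools at 3 weeks lies below all other pools, 1 of them at the limit of 3 counts.

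Estrogen receptor alpha was present in every library and did not differ with lactation beyond the spread between pools. Esr1 measured 2.95, 3.76 and 4.71 CPM in 1wk SBI, and 3.18, 5.02 and 3.18 CPM in 1wk SBI + Lac. In the 3wk SBI pools it was 6.43, 4.33 and 4.81 CPM, against 2.99, 4.44 and 5.93 CPM in 3wk SBI + Lac. The groups overlapped at both time points. Its log2 fold change with lactation was -0.01 at 1 week (95% interval -0.58 to 0.57, adjusted p = 0.994) and -0.24 at 3 weeks (-0.85 to 0.36, adjusted p = 0.656). By mean level the order ran from 3wk SBI through 3wk SBI + Lac and 1wk SBI to 1wk SBI + Lac, and each group overlapped its neighbor. In bulk RNA, fewer cells that express a gene cannot be told apart from less RNA per cell, here or for any gene below.

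Estrogen receptor beta was at the limit of detection. Esr2 had 3 counts over all 12 libraries, 1 each in 1wk SBI replicate 2, 1wk SBI + Lac replicate 1 and 3wk SBI replicate 3, and 0 in the other 9. A limit of 3 counts corresponds to between 0.036 CPM in the deepest library, 3wk SBI replicate 3, and 0.33 CPM in 3wk SBI + Lac replicate 3, counting error only. A level above these limits was not detected in any group, and a fold change was not computed.

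Greb1, a cofactor of the estrogen receptor that estrogen induces in many tissues, was lower in 2 of 3 lactating pools at 3 weeks and did not pass the test. In 1wk SBI its pools held 0.721, 0.995 and 0.796 CPM, and those of 1wk SBI + Lac 0.787, 0.169 and 0.836 CPM. At 3 weeks the values were 1.39, 2.54 and 1.9 CPM in 3wk SBI against 0.749, 0.471 and 2.20 CPM in 3wk SBI + Lac. The third lactating pool at 3 weeks, which had only 20 counts, lay inside the non-lactating range. The log2 fold change was -0.47 at 1 week (SE 0.56, adjusted p = 0.689) and -0.99 at 3 weeks (SE 0.59, adjusted p = 0.352). Without that pool the 3-week value was -1.69, and without 3wk SBI + Lac replicate 2 it was -0.54, neither past the cutoffs.

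The progesterone receptor rested on few counts, between 0 and 62 per library. Pgr was 0.513, 0.304 and 0.0468 CPM in 1wk SBI and 0.164, 0.305 and 0.119 CPM in 1wk SBI + Lac. It was 0.107, 0.31 and 0.744 CPM in 3wk SBI and 0.293, 0.0488 and 0 CPM in 3wk SBI + Lac. Some of these pools were at or under the limit of 3 counts. They were 1wk SBI replicate 3 (2 counts), 3wk SBI replicate 1 (1 count) and 3wk SBI + Lac replicates 2 and 3 (3 and 0 counts). For these pools only a limit can be given, of 0.0703, 0.322, 0.0488 and 0.33 CPM in that order. The spread within the non-lactating groups was as wide as the difference between groups, and the groups overlapped at both times. The log2 fold change was -0.61 at 1 week (95% interval -2.47 to 1.25, adjusted p = 0.743) and -1.81 at 3 weeks (-3.87 to 0.24, adjusted p = 0.298). Summed over the pools at 3 weeks, 68 counts without and 12 with lactation gave a CPM ratio of 5.28 (counting interval 2.83 to 10.7). Of the 68 counts, 62 came from 3wk SBI replicate 3, and without it the ratio was 1.99 (0.612 to 5.72). With 1 library left out the fitted log2 value ran from -0.80, without that pool, to -3.39, without 3wk SBI + Lac replicate 1.

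The glucocorticoid receptor was steady within groups. Nr3c1 stood at 122, 118 and 120 CPM in 1wk SBI and at 131, 119 and 124 CPM in 1wk SBI + Lac, which overlapped (log2 fold change 0.06, SE 0.09, adjusted p = 0.773). In 3wk SBI it was 154, 153 and 144 CPM, and in 3wk SBI + Lac 133, 123 and 133 CPM. All 3 non-lactating pools lay above all lactating ones at 3 weeks. That difference was a log2 fold change of -0.22 (95% interval -0.41 to -0.02), or 0.861 times the non-lactating level, with an unadjusted p of 0.0331 and an adjusted p of 0.195 in edgeR. Of the 4 groups, 3wk SBI was highest and did not overlap the next, 3wk SBI + Lac, while the other 3 groups overlapped their neighbors.

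Hsd11b1, which turns inactive into active glucocorticoid, showed little difference at 1 week and a lower mean with lactation at 3 weeks. It measured 14.5, 14.3 and 18.6 CPM in 1wk SBI and 13.7, 15.5 and 16.2 CPM in 1wk SBI + Lac (log2 fold change -0.06, SE 0.19, adjusted p = 0.907). The 3wk SBI pools held 15.6, 19.3 and 27 CPM, whereas the 3wk SBI + Lac pools held 15.8, 15 and 10.1 CPM. The ranges touched, since the highest lactating pool lay just above the lowest non-lactating one. The log2 fold change was -0.59 (95% interval -1.02 to -0.17, unadjusted p = 0.0089, adjusted p = 0.108). Without 3wk SBI replicate 3, its highest pool, the value was -0.33 with an adjusted p of 0.441, and without 3wk SBI replicate 1 it was -0.74 with an adjusted p of 0.0489, short of the fold cutoff.

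The mineralocorticoid receptor varied little between pools of a group at 1 week, and its small difference with lactation did not pass the test. Nr3c2 stood at 16.8, 16.4 and 17.6 CPM in 1wk SBI and at 19.1, 18.6 and 19.3 CPM in 1wk SBI + Lac, without overlap (log2 fold change 0.17, SE 0.10, adjusted p = 0.393). At 3 weeks it was 25.2, 22.6 and 20.5 CPM without and 24.1, 21.8 and 19.8 CPM with lactation, and the groups overlapped (log2 fold change -0.04, SE 0.11, adjusted p = 0.884). Both 3-week groups lay above both 1-week groups.

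**Figure D2:**
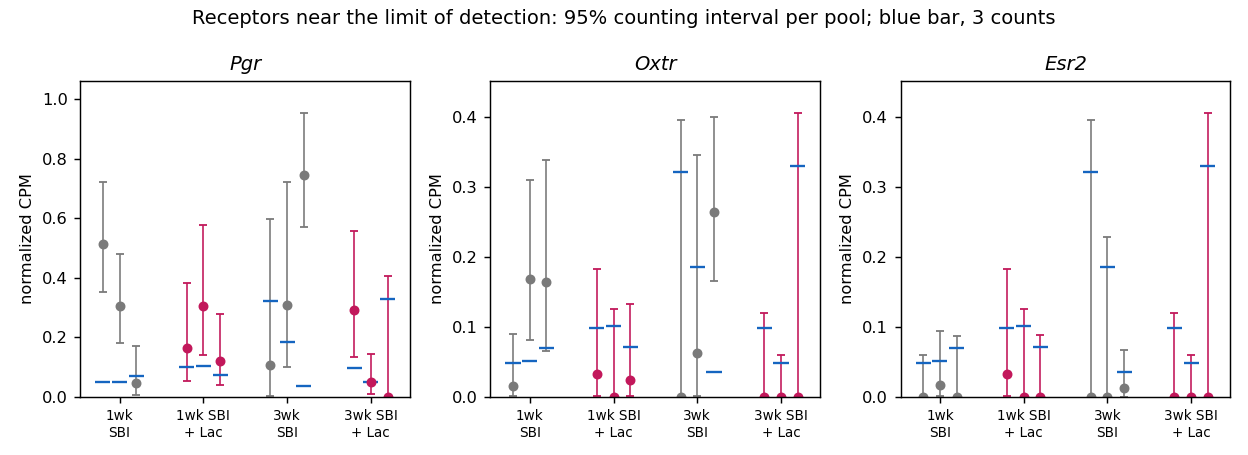
Normalized CPM (vertical axes) of Pgr, Oxtr and Esr2 in each of 12 pools, with 95% counting intervals as whiskers and blue bars at the level of 3 counts, non-lactating in grey and lactating in red. Oxtr lies above its bar in 3 pools, 2 of 1wk SBI and 1 of 3wk SBI, and Esr2 in none.

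The oxytocin receptor was counted above 3 reads only in non-lactating pools. Oxtr had 1, 10 and 7 counts in 1wk SBI, and 1, 0 and 1 in 1wk SBI + Lac. It had 0, 1 and 22 counts in 3wk SBI and 0 in each pool of 3wk SBI + Lac. At 1 week the 18 counts without and 2 with lactation gave a CPM ratio of 5.58 (counting interval 1.34 to 49.6), and without 1wk SBI replicate 2 the ratio was 3.88 (0.774 to 37.5). At 3 weeks the 23 counts against 0 stood 7.14-fold above a limit of 3 counts in all for the lactating group. That is a lower limit than 3 counts in each library, which is used elsewhere here. The counting interval of the ratio began at 5.35. Of those 23 counts, 22 came from 3wk SBI replicate 3, and without it 1 count against 0 allowed no fold. These intervals cover counting error only and not the spread between pools. With the low-count filter removed, edgeR gave Oxtr an adjusted p of 0.426 at 1 week and 0.143 at 3 weeks (unadjusted 0.0956 and 0.00927). DESeq2 gave it no adjusted p. Its unadjusted p in DESeq2 on all 12 libraries was 0.167 at 1 week and 0.0387 at 3 weeks. On only the libraries compared it was 0.123 and 0.141.

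The relaxin receptor had similar means at 1 week and was lower in every lactating pool at 3 weeks, just short of the adjusted cutoff. Rxfp1 was 0.577, 0.793 and 0.586 CPM in 1wk SBI and 0.59, 0.881 and 0.502 CPM in 1wk SBI + Lac, and the 1-week groups overlapped (log2 fold change 0.00, SE 0.49, adjusted p = 0.9995). In 3wk SBI it was 0.965, 0.495 and 1.92 CPM, on 9, 8 and 160 counts. In 3wk SBI + Lac it was 0.26, 0.358 and 0.33 CPM, on 8, 22 and 3 counts, the last of which is at the limit of detection. Every lactating pool at 3 weeks lay below every pool of the other 3 groups.

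The 3-week log2 fold change of Rxfp1 was -1.91 (95% interval -3.03 to -0.79), or 0.266 times the non-lactating level, with an unadjusted p of 0.00248 and an adjusted p of 0.0659 in edgeR. DESeq2, the tool of the study, gave -1.92 and an adjusted p of 0.0198 on all 12 libraries, which passed both cutoffs, and -1.90 with an adjusted p of 0.108 on the 6 libraries compared. Single pools carried weight. Without 3wk SBI replicate 3 the value was -1.14 with an adjusted p of 0.41, though the groups still did not overlap. The counting intervals of 3wk SBI replicate 2 (0.214 to 0.976 CPM) and 3wk SBI + Lac replicate 3 (0.068 to 0.963 CPM) did overlap. Without 3wk SBI replicate 2 the log2 value was -2.24 with an adjusted p of 0.0311. When the 3-week libraries were thinned to equal depth, it was -1.47 with an adjusted p of 0.207.

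**Figure D3:**
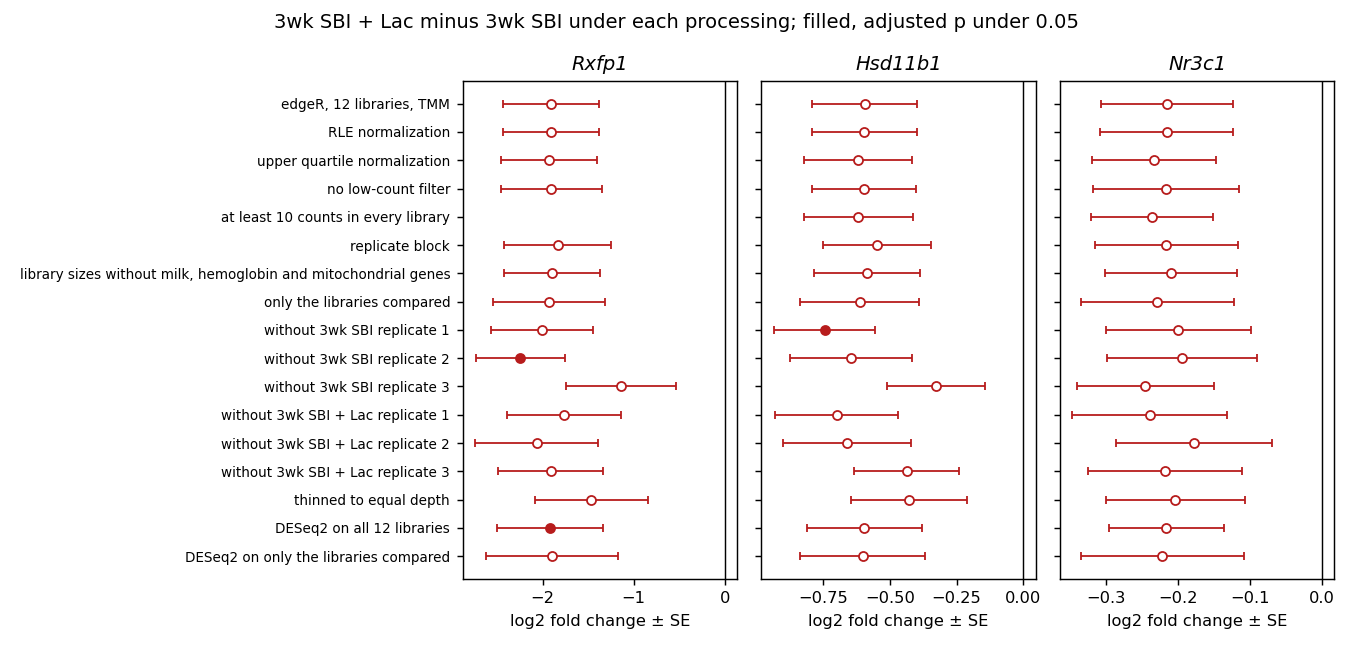
Log2 fold change (horizontal axes, with SE as whiskers) of Rxfp1, Hsd11b1 and Nr3c1 in 3wk SBI + Lac against 3wk SBI under each processing, 1 per line, filled where the adjusted p was under 0.05. Every value lies below 0, Rxfp1 (which was not tested with at least 10 counts in every library) comes closest to 0 at -1.14 and Hsd11b1 at -0.33, both without 3wk SBI replicate 3.

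Cell type markers differed between the 3-week groups as well, and several lists moved the same way at 1 week. Over all genes, 50.5% were lower with lactation at 1 week and 52.3% at 3 weeks, while 0.253% and 0.74% were called. The 10 fibroblast markers summed to between 3513 and 5651 CPM in 3wk SBI and between 2649 and 3823 CPM in 3wk SBI + Lac, with 8 of 10 lower, 0 called and none at 0. The 7 macrophage markers summed to between 229 and 478 CPM and between 215 and 274 CPM, with 7 of 7 lower. Of these Cd68, a lysosomal protein of macrophages, passed both cutoffs at -1.08 (adjusted p = 0.015), which was lost without 3wk SBI replicate 3 (-0.80, adjusted p = 0.0541), 3wk SBI + Lac replicate 1 or 3wk SBI + Lac replicate 3. The highest fibroblast and macrophage sums, 5651 and 478 CPM, were both those of 3wk SBI replicate 3, the pool with the highest Rxfp1, Hsd11b1, Pgr and Oxtr. The 8 smooth muscle markers ran the other way, between 1037 and 1219 CPM without and between 1398 and 1518 CPM with lactation, with 7 of 8 higher and 0 called. The 9 skeletal muscle markers summed to between 134930 and 184440 CPM without and between 196950 and 220240 CPM with lactation, without overlap, with 7 of 9 higher and 0 called. Mammary epithelium markers summed to at most 0.096 CPM in 3wk SBI, with Csn2, Csn3, Csn1s2a, Lalba and Wap at 0, and to between 0.33 and 39.5 CPM in 3wk SBI + Lac. At 1 week they reached at most 0.16 CPM without and 2.91 CPM with lactation. Adipocyte, endothelial, Schwann cell and satellite cell markers held no called gene at either time. At 1 week 7 of 10 fibroblast and 6 of 7 macrophage markers were lower with lactation. Higher were 9 of 9 skeletal and 5 of 8 smooth muscle markers. None was called, and only Cd68 was past the adjusted p alone, which rose to 0.197 without 1wk SBI replicate 1. The smooth muscle sums, 913 to 1364 CPM without and 1430 to 1508 CPM with lactation, did not overlap. Those of fibroblast, macrophage and skeletal muscle markers did. The part of these cells in the values of the receptors was not tested.

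Over the 7 tested genes, 0 were called with lactation at either time. At 1 week 4 were lower and 3 higher, and the middle log2 fold change was -0.00549 against -0.00381 over all genes. The share of all 14599 genes called was 0.253% at that time, 18.9% had an unadjusted p under 0.05 (0 of the 7 here), and 28.4% had groups that did not overlap (1 of the 7, Nr3c2). At 3 weeks all 7 were lower, and the median was -0.59 against -0.0192 over all genes, of which 52.3% were lower. The share of all genes called was then 0.74%, 21.1% had an unadjusted p under 0.05 and 22.3% had groups that did not overlap. Of the 7 genes, 3 had an unadjusted p under 0.05, namely Rxfp1, Hsd11b1 and Nr3c1, and 2 had groups that did not overlap, Rxfp1 and Nr3c1. Nr3c2, at -0.04, turned to 0.04 without 3wk SBI replicate 1 or without 3wk SBI + Lac replicate 3, which left 6 of 7 lower. The genes were chosen with earlier results of these data known, and all were measured in the same pools. Their common direction at 3 weeks is therefore no independent evidence.

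**Figure D4:**
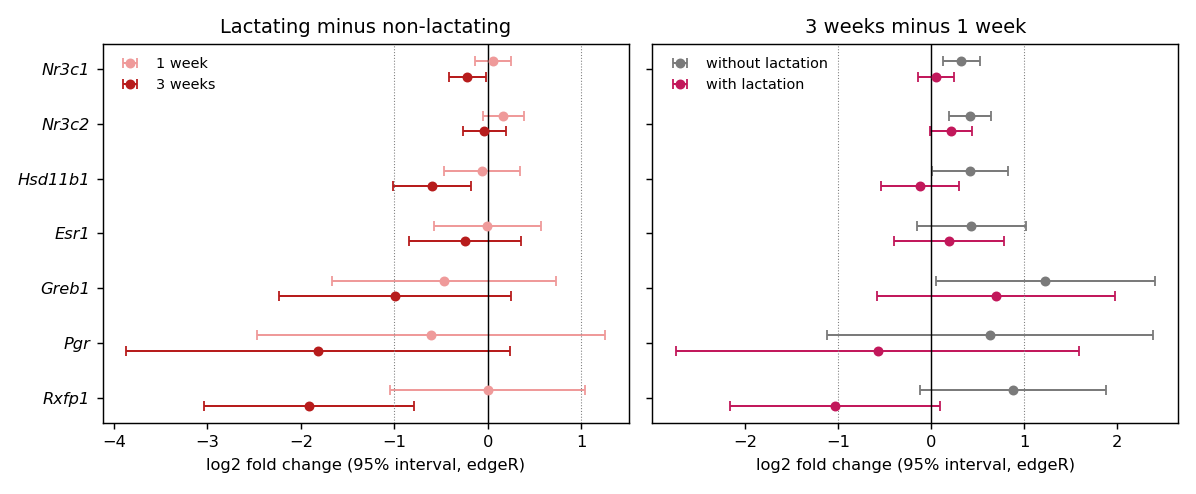
Log2 fold changes (horizontal axes, dots, with 95% intervals as whiskers) of the 7 tested genes. The left panel sets lactating against non-lactating pools at 1 week (pale) and 3 weeks (dark), where all 7 dark dots lie below 0, and the right panel sets 3 weeks against 1 week without (grey) and with (pink) lactation.

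Whether the lactation effect differed between the time points was tested directly. The difference was -1.91 on the log2 scale for Rxfp1 (SE 0.71, unadjusted p = 0.0165, adjusted p = 0.999), and it lay between -1.20 and -0.21 for the other 6 genes. 0 of the 7 were called, against 0.00685% of all genes, and 1 of the 7 had an unadjusted p under 0.05, against 4.42% of all genes. Rxfp1 lay at -1.14 in this comparison without 3wk SBI replicate 3.

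Between 1 and 3 weeks without lactation all 7 genes were higher at the later time, and their median on the log2 scale was 0.43 against -0.00865 over all genes. This direction is no independent evidence either, since the genes were chosen with earlier results of these data known. The same 3wk SBI pools serve in this comparison and in the lactation effect at 3 weeks, so the 2 are not independent, and differences in counting between the time points cannot be told apart from time. Nr3c2 rose by 0.42 (SE 0.11, adjusted p = 0.0349), past the adjusted p alone, as did 5.05% of all genes. Its adjusted p ran from 0.0127 to 0.155 with 1 library left out, and stayed under 0.05 only without 1wk SBI replicate 3 or 3wk SBI replicate 3, and it was 0.142 when only the 6 libraries compared were used. Nr3c1 had 0.33 (adjusted p = 0.0534), Greb1 1.23 (adjusted p = 0.217) and Hsd11b1 0.42 (adjusted p = 0.229), and these 4 genes were those with an unadjusted p under 0.05, against 21.2% of all genes. None of the 7 was past both cutoffs, against 1.46% of all genes, and 3 of the 7, Nr3c1, Nr3c2 and Greb1, had groups that did not overlap, against 21.6% of all genes. Without 3wk SBI replicate 3, 6 of the 7 were higher, Pgr turned to -0.38, Rxfp1 stood at 0.11 and Hsd11b1 at 0.15.

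The change from 1 to 3 weeks with lactation was set out in the same way. The difference between the changes with and without lactation is the contrast tested above, with 0 of 7 called. Of the 7 genes with lactation, 4 were higher and 3 lower at 3 weeks, between -1.03 for Rxfp1 (adjusted p = 0.322) and 0.70 for Greb1 (adjusted p = 0.575). None was called, against 0.774% of all genes, and none had an unadjusted p under 0.05, against 18.1%. Nr3c2, higher at 3 weeks, and Rxfp1, lower, had groups that did not overlap, as did 28.1% of all genes.

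Genes downstream of the receptors were counted by lists chosen with results of these data known, so a list's direction is no independent evidence. Among 20 tested glucocorticoid target genes, Fkbp5 and Glul were called higher with lactation at 1 week and 0 lower, against 0.253% of all genes called. The list median was 0.51, with 16 of the 20 higher and 4 lower. At 3 weeks Fkbp5, Glul and Cebpd were called higher and Angptl4 lower, with a median of 0.30, against 0.74% of all genes called. By sign alone 12 of the 20 were higher and 8 lower at that time. Fkbp5, a co-chaperone that dampens the glucocorticoid receptor, went from 6.54 ± 0.501 to 17.4 ± 5.32 CPM (SD, n = 3) at 1 week and from 15.2 ± 2.32 to 38.5 ± 7.41 CPM at 3 weeks. Its log2 fold changes were 1.41 (adjusted p = 0.0146) and 1.36 (adjusted p = 0.00777).

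Glul, glutamine synthetase, rose by 1.14 (adjusted p = 0.0235) and 1.24 (adjusted p = 0.00802) at the 2 times. Cebpd, a transcription factor, rose by 1.04 at 3 weeks (adjusted p = 0.0151). At 1 week Cebpd was past the adjusted p alone at 0.93 (adjusted p = 0.0474, or 0.231 without 1wk SBI replicate 1). Angptl4, an inhibitor of lipoprotein lipase, fell by 2.80 on the log2 scale at 3 weeks (adjusted p = 0.0131), from 2.35 ± 0.65 to 0.421 ± 0.226 CPM. At 1 week Angptl4 was higher with lactation, from 1.17 ± 0.466 to 3.49 ± 1.7 CPM (1.58, adjusted p = 0.0745). Those groups did not overlap, and it was not called. The 1-week calls were lost for both Fkbp5 and Glul without 1wk SBI replicate 1, 1wk SBI replicate 2 or 1wk SBI + Lac replicate 1, and for Glul also without 1wk SBI + Lac replicate 2, with adjusted p up to 0.138. At 3 weeks the calls of Cebpd and Angptl4 were lost without 3wk SBI + Lac replicate 1 or 2, and that of Cebpd also without 3wk SBI replicate 2, where it stood at 0.86.

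The chaperones and cofactors that hold steroid receptors ready for hormone gave 20 tested rows for 18 genes. Of these, 17 were higher with lactation at 1 week and 19 at 3 weeks, with medians of 0.12 and 0.25. Of the list 1, Fkbp5, was called at each time. Over all genes, 50.5% were lower at 1 week and 52.3% at 3 weeks, and 0.253% and 0.74% were called. Ppid, a cyclophilin of the receptor complex, was past the adjusted p alone at 0.64 (adjusted p = 0.0286) and 0.62 (adjusted p = 0.015). Fkbp4, which favors the hormone-bound receptor, was past it at 3 weeks at 0.57 (adjusted p = 0.0354). With 1 library left out, the adjusted p rose as high as 0.147 for Ppid at 1 week (without 1wk SBI + Lac replicate 1), 0.0693 for Ppid at 3 weeks (without 3wk SBI + Lac replicate 1) and 0.116 for Fkbp4 (without 3wk SBI replicate 3).

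Other target lists held no further calls, where 0.253% of all genes were called at 1 week and 0.74% at 3 weeks. Among 13 estrogen target genes 0 were called, with 10 lower at 1 week (median -0.25) and 8 lower at 3 weeks (median -0.22). Of all genes, 50.5% and 52.3% were lower at these times. The cell cycle gene Ccnd1 came closest at 3 weeks at -0.77 (adjusted p = 0.0608), and Igfbp4, which binds insulin-like growth factors, stood at -0.82 at 1 week (adjusted p = 0.133). Of 5 tested progesterone target genes, 1 was called at each time, again Fkbp5, which is on both lists. None of 7 mineralocorticoid target genes was called at either time, and Tsc22d3, a glucocorticoid-induced gene on both lists, was past the adjusted p alone at 1 week at 0.82 (adjusted p = 0.0247, or 0.139 without 1wk SBI + Lac replicate 1). Of 11 genes of oxytocin receptor signaling 0 were called, and Rgs2, a brake on Gq signaling, was past the adjusted p alone at 3 weeks at -0.77 (adjusted p = 0.0174), from 23 ± 5.08 to 13.5 ± 1.63 CPM (adjusted p = 0.0696 without 3wk SBI + Lac replicate 1 and 0.0796 without 3wk SBI + Lac replicate 2).

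**Figure D5:**
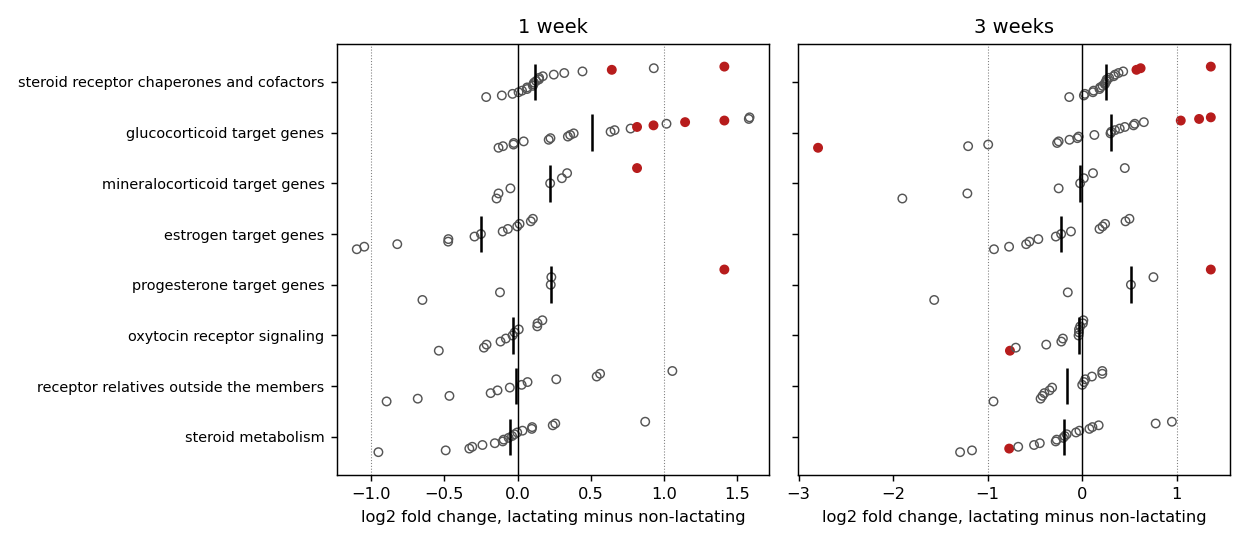
Log2 fold change (horizontal axes) of every tested gene of 8 lists, lactating against non-lactating, at 1 week and 3 weeks, 1 circle per gene, filled where the adjusted p was under 0.05, with a bar at each list's median. Filled circles lie mainly in the lists of chaperones and glucocorticoid targets, and Fkbp5 appears in 3 lists.

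The genes whose levels ran most like those of each tested gene were found by correlation of log2 CPM over the 12 libraries, after the mean of each time point was subtracted. For Rxfp1 they were Rab27a (r = 0.914), Fadd (r = 0.903) and LOC100909928 (r = 0.872). For Hsd11b1 they were Tasor (r = 0.95), St8sia4 (r = 0.938) and Stard4 (r = 0.929). For Nr3c1 they were Tnfrsf19 (r = 0.907), Hmbox1 (r = 0.88) and Limch1 (r = 0.866), and for Nr3c2 Aarsd1 (r = 0.964), Pigv (r = 0.938) and Aldoc (r = 0.906). Esr1 was followed most closely by Arfgef2 (r = 0.907), Pgr by Pdcd11 (r = 0.92) and Greb1 by Ppip5k2 (r = 0.912). These are the highest of about 12019 candidates each and share libraries and depth, so they describe these pools only. Among the 7 genes the closest pair was Rxfp1 and Hsd11b1 (r = 0.645), and both were highest in 3wk SBI replicate 3.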

How the data were processed

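Pubocaudalis messenger RNA was sequenced from 12 libraries in 4 groups, each a pool of 2 rats. The authors deposited raw counts per gene, whole counts at 1 week and estimated counts with decimals at 3 weeks, which were rounded here although whole counts had been assumed. The submitters' processing notes name Salmon, while its version and role, and the build and annotation used, are not given in the sources used here. Columns without a sample numbered 0. edgeR 4.0.16 in R 4.3.3 was run with TMM, filterByExpr and a robust quasi-likelihood fit over all libraries, and p-values were adjusted by Benjamini-Hochberg over 14599 genes. Calls needed an adjusted p below 0.05 together with a log2 change beyond 1 either way. DESeq2 1.42.0, the study's tool, was an alternative. Each standard error is the log2 value divided by the root of F. A level of 3 counts was taken as the limit of detection, and intervals on counts are exact Poisson at 95%, counting error only. The legends of the study call the pools technical replicates, but the labels name different rats for each, so pools were treated as separate samples. Counts of same-group libraries were compared by chi-square, which was 20.8 to 95.3 for each degree of freedom, so none was a copy of another. Alternatives covered normalization, filters, library sizes, thinning, a replicate block, the libraries used and each library left out. The 9 genes and the lists were chosen with earlier results of these data known. All 9 are named, from each list those past both cutoffs plus at most 3 with the smallest p (1 list gene is not reported here), and the 3 genes most alike for each tested gene (mean of at least 1 CPM). Promoters came from RefSeq GRCr8, and coordinates of the counts were not used.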

Additional observations from a re-analysis of the deposited data

How the results depend on the processing

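The number of the 7 genes past both cutoffs stayed at 0 in each of the 5 comparisons except at 3 weeks with lactation, where it was 1 (Rxfp1) in DESeq2 on all 12 libraries and ranged from 0 to 1 with 1 library left out (1 without 3wk SBI replicate 2). The count over all genes, 37 for lactation at 1 week, 108 at 3 weeks, 1 for their difference, and 213 and 113 for time without and with lactation, moved further, and the cause was not tested. At 1 week it was 188 in DESeq2 on all libraries, 332 in DESeq2 and 110 in edgeR on only the libraries compared, 22 with at least 10 counts in every library (fewer genes tested), and 2 to 235 with 1 library left out. At 3 weeks it was 242 and 175 in DESeq2, 70 after thinning, and 22 to 157 with 1 library left out. For the difference it was 11 in DESeq2, 2 without the low-count filter and 1 to 5 with 1 library left out. For time it was 103 without and 191 with lactation on only the libraries compared, 248 with lactation in DESeq2, and 61 to 554 and 27 to 77 with 1 library left out. The replicate block moved the count to 8 at 1 week, 64 at 3 weeks and 2 for the difference. The labels name different rats for each pool, and deviations of same-numbered pools correlated at -0.233 to -0.0503 within a time point (0 of 12 libraries were closest to their own number there) and at -0.213 to 0.2 between time points, so the numbers were not taken to pair the pools. With the block 0 of the 7 genes were called, and Glul lost its 1-week call (adjusted p = 0.065). Ppid (0.0523), Tsc22d3 (0.065), Cd68 (0.0714) and Cebpd (0.0966) at 1 week, and Fkbp4 (0.0744) and Nr3c2 over time without lactation (0.058), rose above 0.05. With at least 10 counts in every library 4 of the genes were tested, all 4 lower with lactation at 3 weeks and higher at 3 weeks without it.

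Signs turned only for values near 0 or resting on few counts. At 1 week Rxfp1 turned to -0.016 with upper quartile scaling, -0.00045 without the low-count filter, -0.0030 with library sizes that leave out milk, hemoglobin and mitochondrial genes and -0.0068 on only the libraries compared, and Esr1 to 0.0019 with the replicate block. With 1 library left out, the 1-week values ran from -0.26 to 0.17 for Rxfp1, -0.25 to 0.17 for Esr1, -1.07 to 0.083 for Pgr and -0.12 to 0.076 for Hsd11b1, the 3-week value of Nr3c2 from -0.11 to 0.038, and the difference for Esr1 from -0.43 to 0.012. Over time, Pgr ran from -0.38 to 1.29 without lactation and from -2.17 to 0.037 with it, and with lactation Hsd11b1 from -0.22 to 0.041 and Greb1 from -0.00061 to 1.16. Hsd11b2 at 1 week and Igfbp4 at 1 week passed both cutoffs without 1wk SBI replicate 3, and Insl3 at 3 weeks in DESeq2 on all libraries (adjusted p = 0.0215) and without 3wk SBI replicate 1 (0.0447) or 3wk SBI + Lac replicate 2 (0.0433). Other pools moved them away from the cutoffs. Without 1wk SBI replicate 1 the 1-week adjusted p was 0.508 for Hsd11b2 and 0.431 for Igfbp4. Without 3wk SBI replicate 3 the 3-week values were -1.03 for Insl3 (adjusted p = 0.318) and -0.96 for Hsd11b2 (adjusted p = 0.406). Depth limited Esr2, Oxtr, Pgr and, at 3 weeks, Rxfp1, for which the shallowest lactating pool held 3 counts.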

Other observations

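Relatives of the receptors were measured alongside, and values are means ± SD of 3 pools. Of 18 listed, 16 were in the table and 12 were tested, with 0 called with lactation at either time. The membrane progesterone-binding protein Pgrmc1 had the smallest p of the list at 1 week, from 15.4 ± 2.02 to 11.2 ± 0.379 CPM (-0.47, adjusted p = 0.109). The vasopressin receptor Avpr2 and the relaxin family receptor Rxfp3 had 0 counts in every library.

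Of 7 listed ligand genes 6 were in the table, where oxytocin (Oxt) had 0 counts in every library and relaxin (Rln1) at most 10 in any. Insl3, a ligand of the relaxin family receptor Rxfp2, had 2 rows under the same symbol, so that its reads may be split between them. The row with more counts went from 2.43 ± 1.01 to 0.842 ± 0.607 CPM with lactation at 3 weeks (-1.40, adjusted p = 0.076), and the groups overlapped. The other row went from 0.485 ± 0.209 to 0.0542 ± 0.0497 CPM (-2.67, adjusted p = 0.211).

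Of 29 genes of steroid metabolism 18 were tested and 0 called. Aromatase (Cyp19a1), Cyp17a1 and Hsd3b1 had 0 counts in every library, and Cyp11a1 had at most 1. Hsd3b7, an enzyme of bile acid synthesis, was past the adjusted p alone at 3 weeks, from 8.86 ± 0.525 to 5.10 ± 0.633 CPM (-0.77, adjusted p = 0.02, or 0.0723 without 3wk SBI + Lac replicate 1). Hsd11b2, which inactivates glucocorticoid where Hsd11b1 regenerates it, went from 4.43 ± 2.09 to 2.30 ± 0.351 CPM at 1 week (-0.95, adjusted p = 0.156) and from 1.44 ± 0.507 to 0.67 ± 0.0573 CPM at 3 weeks (-1.17, adjusted p = 0.127).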
